A study of Homo sapiens with 6 samples.

Results

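The mRNAs of 48 human genes that encode very large proteins were followed through a pull-down of the long non-coding RNA CyCoNP. The genes were chosen by name for the length of their coding sequences and not by their levels, though earlier results of these data were known. Each symbol matched 1 gene of the count table, so the set is 48 of the 60676 genes listed. Their longest annotated coding sequences run from 5943 bases in MYH9 to 23454 bases in DST, with a median of 11184 bases, against a median of 1383 bases over all nuclear protein-coding genes tested. RNA came from SK-N-BE cells, an established human neuroblastoma line, at day 1.5 of differentiation with 10 µM retinoic acid, and all libraries share this treatment. In the assay, biotinylated DNA probes complementary to a target are added to a native cell extract and retrieved on streptavidin beads with the RNAs attached to the target. There were 2 libraries each of the extract itself (input), of the pull-down with probes against CyCoNP (CyCoNP PD), and of the pull-down with probes against the bacterial gene LacZ as a control (LacZ PD). Reads were of PCR-amplified cDNA sequenced on a Nanopore device, and a level below is a gene's counts scaled to the total of its library (CPM).

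Very long mRNAs are rare and hard to keep whole, since a single break separates the poly(A) tail, at which the cDNA is primed, from most of the message. The proteins they encode are often scaffolds, motors or multidomain enzymes. In neurons and in neuroblastoma cells that take on neuronal features, these include the spectrins and ankyrins under the membrane, the dynein motor of axonal transport, the giant ubiquitin ligases of protein turnover, and the chromatin enzymes of the KMT2 and CHD families. The question put to them is whether genes of long mRNAs took a different share of the counts in the pull-down libraries than in the input. Counts are per gene, so the lengths of the reads and of the RNA molecules were not measured.

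Every pull-down rests on the probe sequences, so the stretches in which a CyCoNP probe could pair with a long mRNA are shown first. In the lines that follow, each 20-base probe is written from its 5′ end, with the bases complementary to the named mRNA in capitals. Of the 13 members with a stretch of 12 bases or more, 5 are shown as examples, UBR4 and VPS13D with 13 bases and SRRM2, HUWE1 and DYNC1H1, which are among those with the most counts, with 12. Where several stretches of a member were equally long the first one found is shown.
Probe 20 and UBR4: CCACCTCAACAAAcctttac
Probe 20 and VPS13D: ccacctcAACAAACCTTTAC
Probe 13 and SRRM2: aGGCATGGGGAAGgattagg
Probe 19 and HUWE1: tttGTGAGGCCAGAGaacag
Probe 2 and DYNC1H1: gggAACTGGAGGGAGaggtc

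On GRCh38 with the canonical transcripts of GENCODE v44, the stretch in UBR4 lies at chr1:19104231-19104243 on the minus strand, in the coding sequence. That in VPS13D lies at chr1:12509387-12509399 on the plus strand, in the 3′ UTR. Those in SRRM2 (chr16:2762873-2762884, plus strand), HUWE1 (chrX:53546732-53546743, minus strand) and DYNC1H1 (chr14:102039432-102039443, plus strand) are coding. The longest stretch over the 48 members was 10 to 13 bases with a median of 11, and 13 of 48 (27.1%) had 12 bases or more. Among 1372 other coding genes whose canonical transcript has 7000 bases or more the share was 15.7%, and among 10435 other coding genes tested, which are mostly shorter, it was 6.82%. The members' canonical transcripts have a median of 13431 bases and run to 24709, and these classes were not matched to them in length. For CHD7, the member with the largest difference between CyCoNP PD and input, the longest stretch was 11 bases. The CyCoNP gene, LINC02381 on chromosome 12 from 54126019 to 54147485, holds 21 of the 22 probe targets whole in its genomic sequence. Whole targets were not sought in the spliced RNA, so a target across an exon junction would be missed.

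The libraries differed widely in depth, from 18870 counts in LacZ PD 1 to 1512148 in CyCoNP PD 1, with 140115 in LacZ PD 2 and 514882 to 791970 in the other 3. A level of 159 CPM in LacZ PD 1 is made of 3 counts, and one of 21.4 CPM in LacZ PD 2, so most single members lie near or under what the control libraries can measure. CyCoNP itself had 11687 and 3507 counts in CyCoNP PD, 20 and 39 in the inputs, and 1 and 20 in LacZ PD. The 11 sympathoadrenal marker genes, MYCN and STMN2 among them, were detected in every group, and 2 of them were at 0 in LacZ PD 1 and 1 each in CyCoNP PD 2 and LacZ PD 2. Libraries with the number 1 stood apart from those with the number 2 in every group. The summed level of 9 mesenchymal markers was 549, 343 and 477 CPM in input 1, CyCoNP PD 1 and LacZ PD 1, and 58.1, 93.2 and 71.4 CPM in the libraries numbered 2. COL1A1, a fibrillar collagen chain, had 192, 186 and 4 counts in the libraries numbered 1 and 10, 3 and 1 in those numbered 2. COL1A2 had 131, 165 and 1 against 2, 1 and 0, and COL3A1 had 30, 130 and 4 against 0, 3 and 0. In the libraries numbered 1 the sums rested mostly on these collagens, and not all markers shared the direction. LUM had 8, 8 and 0 counts against 15, 20 and 2, and TWIST1 had 27, 12 and 0 against 15, 12 and 5. The remaining markers had few counts. Ribosomal protein mRNAs, which are short, took 12.97% of input 1 and 19.9% of input 2, 12.8% and 15.1% of CyCoNP PD, and 12.1% and 23.2% of LacZ PD. The part of these differences in the values of the long mRNAs was not tested.

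Pooled over all 48 members, the long mRNAs took a share of the counts that did not separate the groups. The share was 0.295% (95% Wilson interval 0.283 to 0.308) of input 1 and 0.173% (0.164 to 0.182) of input 2. In CyCoNP PD it was 0.238% (0.230 to 0.246) and 0.204% (0.192 to 0.217). In LacZ PD it was 0.238% (0.178 to 0.319), from 45 counts, and 0.109% (0.0932 to 0.128), from 153 counts. Both CyCoNP PD libraries thus lay between the 2 inputs, and only LacZ PD 2 lay under both of them. The intervals cover counting error only, since reads from PCR without molecular identifiers are not independent molecules. The group means were 0.234 ± 0.0865%, 0.221 ± 0.0242% and 0.174 ± 0.0914% (SD, n = 2) in input, CyCoNP PD and LacZ PD, and their differences were smaller than the spread between the input replicates. In a bulk extract, fewer cells that make an RNA and less of that RNA per cell cannot be told apart.

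**Figure D1:**
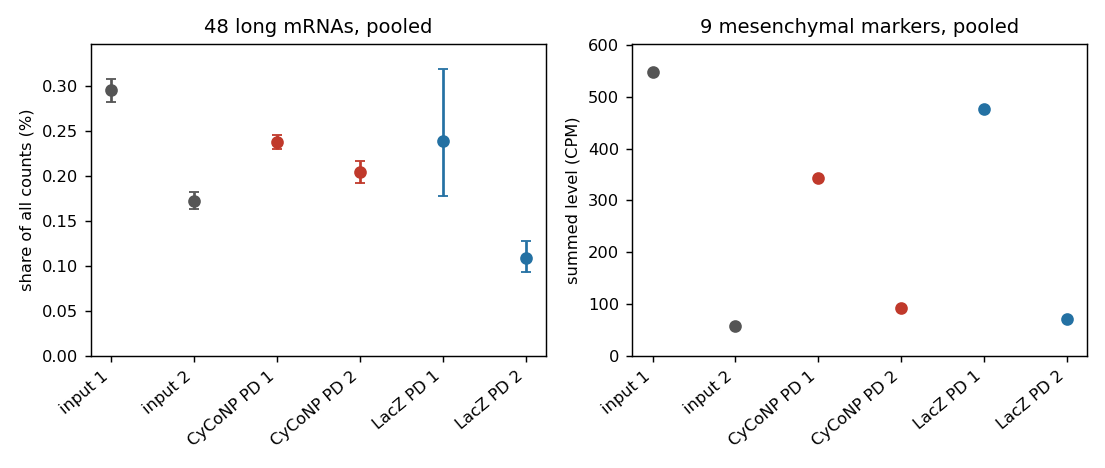
Left, pooled share of the 48 long mRNAs in all counts of each library (y axis, percent; points, with 95% Wilson intervals as bars). Right, summed level of 9 mesenchymal marker genes in the same libraries (y axis, CPM). Grey is input, red CyCoNP PD and blue LacZ PD, and in each group the library numbered 1 is the higher of the pair in both panels.

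Set against the input of the same number, the pooled share was 0.807 times as large in CyCoNP PD 1 and 1.18 times in CyCoNP PD 2, so the direction differed between the replicates. In LacZ PD it was 0.808 and 0.632 times the input. The value above 1 rested on CHD7, and without it the ratios of CyCoNP PD to input were 0.751 and 0.944. The spread between replicates was larger than these differences. The share in input 1 was 1.71 times that in input 2, and 38 of the 48 members (79.2%) had a higher CPM in input 1, against 58.0% of all genes tested and 75.8% of the other tested genes with a coding sequence of 5000 bases or more. In CyCoNP PD 33 members (68.8%) were higher in the library numbered 1, against 53.1% of all genes tested. Mitochondrially encoded coding genes took 3.83% and 1.89% of the input libraries and 8.16% and 5.16% of CyCoNP PD. With these genes left out of the total, the long mRNAs took 0.250% of input and 0.246% of CyCoNP PD on average.

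Of the 48 members, 47 reached the total of 10 counts needed for a test, and FAT1, an atypical cadherin, did not, with 3 and 1 counts in the inputs, 2 and 0 in CyCoNP PD, with 0 in both LacZ PD libraries. Each was tested within the fit of all 12565 genes by the quasi-likelihood test of edgeR, adjusted after Benjamini and Hochberg, and was called at an adjusted p under 0.05 with a log2 fold change above 1 or below -1. Against input, 0 members were called in CyCoNP PD, where 0.119% of all genes tested were called higher and 0.00796% lower. Only CHD7 (1 member) was higher at an unadjusted p under 0.05 and 0 were lower, where 3.08% and 2.32% of all genes were. DESeq2, edgeR without the count filter and both tools with the replicate block called 1 member, again CHD7, where all genes were called higher and lower at 0.462% and 0.111% with DESeq2, 0.444% and 0.121% without the count filter, 1.53% and 0.732% with the replicate block, and 0.692% and 0.279% with the block in DESeq2. The fitted log2 fold change was above 0 for 16 members and below 0 for 31, with a median of -0.28, next to -0.26 for the 425 other tested genes with a coding sequence of 5000 bases or more and -0.01 for all genes. Both CyCoNP PD libraries lay above both inputs for 3 members (CHD7, MYH10 and PRPF8), where 15.9% of all genes did, and below both for 11, where 20.3% did. Without input 1 the median moved to 0.17, and without CyCoNP PD 2 to -0.02, so its sign rests on single libraries. The LacZ PD comparison below uses the same input libraries, so the 2 are not independent.

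**Figure D2:**
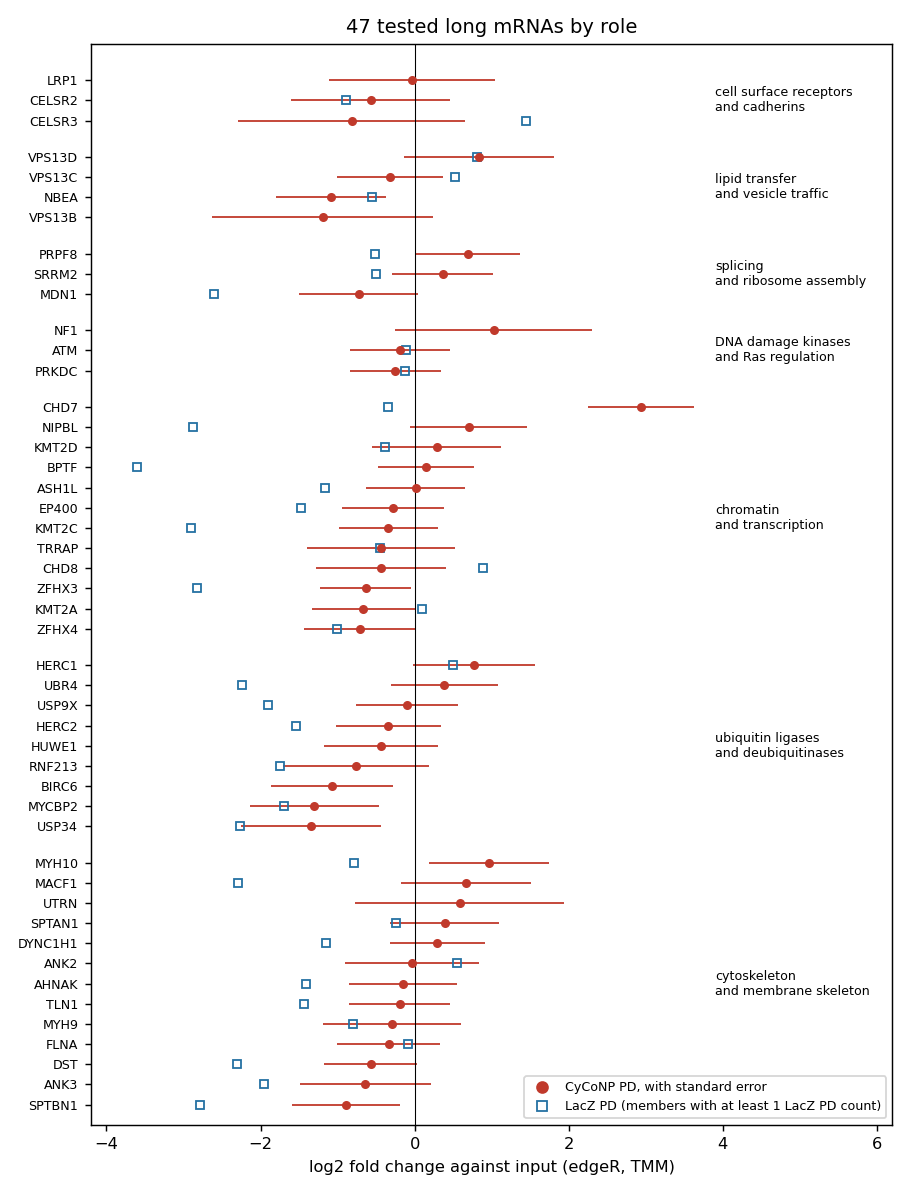
Log2 fold change against input (x axis, edgeR with TMM normalization) of the 47 tested long mRNAs (rows), grouped by role. Red points are CyCoNP PD with the standard error as bars, and open blue squares are LacZ PD for members with at least 1 LacZ PD count; CHD7 at 2.93 stands to the right of all other red points, which run from -1.34 to 1.03.

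Among the 12 chromatin and transcription genes, CHD7 was higher in CyCoNP PD and ZFHX3 was lower in LacZ PD by some of the tests, and the others did not pass. CHD7 encodes an ATP-dependent chromatin remodeller of the neural crest, mutated in CHARGE syndrome. It was at 58.5 and 30.3 CPM in the input libraries, 209 and 437 CPM in CyCoNP PD, and 106 and 28.5 CPM in LacZ PD, where it rested on 2 and 4 counts. Both CyCoNP PD libraries lay above the other 4, and input and LacZ PD overlapped. The mean was 44.4 ± 19.9 CPM in input and 323 ± 161 CPM in CyCoNP PD (SD, n = 2). The log2 fold change was 2.93 (standard error 0.69), with an unadjusted p of 0.00076 and an adjusted p of 0.169 from edgeR, and it stayed between 2.36 and 3.36 when single libraries were left out. The call depended on the fit. The adjusted p was 0.0111 with DESeq2, 0.0312 in edgeR without the count filter, and 4.03e-05 in edgeR with the replicate number as a block. Against LacZ PD the log2 fold change of CHD7 was 3.27 (standard error 0.83, adjusted p = 0.372 from edgeR), with an adjusted p of 0.00279 with the block and 0.0659 with DESeq2.

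CHD8, a remodeller of the same family, was at 26.5 and 11.4 CPM in input, 5.29 and 23.3 CPM in CyCoNP PD, and 106 and 28.5 CPM in LacZ PD, again from 2 and 4 counts. Its CyCoNP PD and input libraries overlapped, with a log2 fold change of -0.44 (standard error 0.85). LacZ PD lay above both inputs, a position that rests on 6 counts.

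ZFHX3, a homeobox and zinc finger transcription factor of differentiating neurons, was at 391 and 237 CPM in input, 169 and 214 CPM in CyCoNP PD, and 53.0 and 57.1 CPM in LacZ PD. The 3 groups did not overlap, with input highest and LacZ PD lowest. LacZ PD held 1 and 8 counts. For LacZ PD over input its log2 fold change was -2.82 (standard error 0.73), with an unadjusted p of 0.0017 and an adjusted p of 0.480 from edgeR. The adjusted p of ZFHX3 was 0.0195 with DESeq2 and 0.0241 in edgeR with the replicate block, both past the threshold. In CyCoNP PD its log2 fold change against input was -0.63 (standard error 0.59), and its difference between the 2 pull-downs was 2.19 (standard error 0.73, adjusted p = 0.745 from edgeR). ZFHX4, its relative, was at 50.1 and 27.8 CPM in input and at 19.8 and 25.2 CPM in CyCoNP PD.

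BPTF is the histone reader of the NURF remodelling complex. It was at 73.8 and 54.3 CPM in input and at 80.0 and 52.4 CPM in CyCoNP PD, and had 0 and 1 counts in LacZ PD. Input and CyCoNP PD overlapped closely, with a log2 fold change of 0.14 (standard error 0.62). With 1 count in all, LacZ PD over input was 0.0989 (95% exact interval 0.00248 to 0.564, counting error only), and edgeR gave an unadjusted p of 0.0056 and an adjusted p of 0.582. For the histone H3 lysine 4 methyltransferase KMT2C the same ratio was 0.161 (0.00401 to 0.932), also from 1 count. Of its relatives, KMT2A was at 36.4 and 15.5 CPM in CyCoNP PD, below 52.9 and 37.9 CPM in input, and KMT2D spread from 9.71 to 65.5 CPM within CyCoNP PD alone. NIPBL, which loads cohesin onto DNA, was at 66.9 and 25.3 CPM in input and at 46.95 and 95.2 CPM in CyCoNP PD. The scaffold TRRAP, the remodeller EP400 and the methyltransferase ASH1L had log2 fold changes of -0.44, -0.28 and 0.01 in CyCoNP PD, none past the test. A named pseudogene of EP400 took 8 and 6 counts in the inputs and 32 and 20 in CyCoNP PD, so the counts of EP400 are uncertain.

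**Figure D3:**
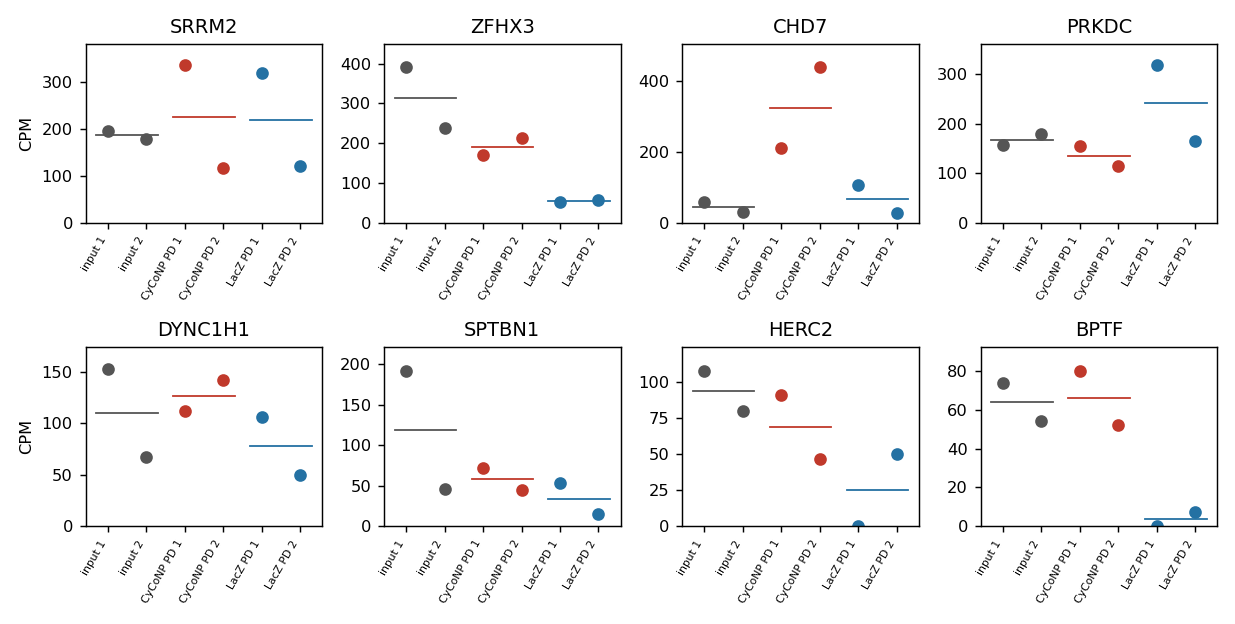
Level in each library (y axis, CPM; points) of the 8 members with the largest summed counts, with the group mean of 2 libraries as a line. Grey is input, red CyCoNP PD and blue LacZ PD; CHD7 is higher in both CyCoNP PD libraries than elsewhere, and ZFHX3 and BPTF are lowest in LacZ PD.

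The 13 mRNAs of the cytoskeleton and membrane skeleton kept levels in CyCoNP PD that overlapped the input for all but DST and MYH10, and 0 were called in any comparison. DYNC1H1, the heavy chain of the cytoplasmic dynein motor, was at 153 and 66.9 CPM in input, 112 and 142 CPM in CyCoNP PD, and 106 and 50.0 CPM in LacZ PD. The input libraries enclosed both CyCoNP PD libraries. Its log2 fold change in CyCoNP PD was 0.30 (standard error 0.61), and it moved from -0.11 to 0.89 when single libraries were left out. DST, a cytolinker that ties intermediate filaments to other fibres, was at 85.0 and 79.5 CPM in input, 54.9 and 50.5 CPM in CyCoNP PD, and 53.0 and 14.3 CPM in LacZ PD from 1 and 2 counts. Its replicates lay close together, with 82.3 ± 3.83 CPM in input and 52.7 ± 3.11 CPM in CyCoNP PD (SD, n = 2). The log2 fold change of -0.57 (standard error 0.61) did not pass the test, with an unadjusted p of 0.36 in edgeR, which takes the spread from all genes of this level. MACF1, its close relative, was at 52.9 and 8.84 CPM in input and at 58.2 and 29.1 CPM in CyCoNP PD.

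SPTBN1, the β chain of the spectrin lattice, was at 192 and 45.5 CPM in input, 71.4 and 44.7 CPM in CyCoNP PD, and 53.0 and 14.3 CPM in LacZ PD. Input 1 was far above input 2, a wider gap than that between any 2 group means. LacZ PD over input was 0.164 (95% exact interval 0.0334 to 0.487) from 3 counts, with an unadjusted p of 0.015 and an adjusted p of 0.619 from edgeR. Its partner SPTAN1, the α chain, was at 55.7 and 30.3 CPM in input and 63.5 and 40.8 CPM in CyCoNP PD. The non-muscle myosin heavy chains also differed between the inputs, with MYH9 at 80.8 and 8.84 CPM and MYH10 at 34.8 and 6.31 CPM. MYH10 was at 35.0 and 38.8 CPM in CyCoNP PD, just above input 1, with a log2 fold change of 0.96 (standard error 0.78, unadjusted p of 0.24 in edgeR). The actin crosslinker FLNA, the integrin linker TLN1, the scaffold AHNAK and the ankyrins ANK2 and ANK3 had log2 fold changes from -0.64 to -0.03 in CyCoNP PD. The region of ANK2 holds overlapping genes with 14423 counts, against 45 for ANK2 itself over all libraries. UTRN, the autosomal relative of dystrophin, had 7 and 1 counts in the inputs, 20 and 0 in CyCoNP PD, with 0 in both LacZ PD libraries. MYH9, TLN1 and FLNA are also abundant in mesenchymal cells. The summed mesenchymal markers, mostly collagen counts, were likewise higher in input 1, a link that was not tested.

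The 9 ubiquitin ligases and deubiquitinases took a smaller share of both CyCoNP PD libraries than of the input with the same number, 0.701 and 0.707 times as large, and of both LacZ PD libraries, 0.302 and 0.433 times as large. They took 0.0527% and 0.0280% of the input libraries, 0.0369% and 0.0198% of CyCoNP PD, and 0.0159% and 0.0121% of LacZ PD, from 3 and 17 counts. The order of the groups was thus the same for both numbers, although CyCoNP PD 1 lay between the inputs. HERC2, a ligase of the DNA damage response, was at 107 and 79.5 CPM in input and 90.6 and 46.6 CPM in CyCoNP PD, and had 0 and 7 counts in LacZ PD. USP9X, a deubiquitinase mutated in intellectual disability, was at 97.5 and 47.98 CPM in input and 59.5 and 68.0 CPM in CyCoNP PD, and had 0 and 4 counts in LacZ PD. For both genes the CyCoNP PD and input libraries overlapped, and their log2 fold changes there were -0.34 (standard error 0.68) and -0.10 (standard error 0.66). HERC2 shares sequence with 11 named pseudogenes, which took 0 to 26 counts per library, so its counts are uncertain.

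HUWE1, a ligase that acts on p53 and MYC family proteins, had 67 and 42 counts in the inputs, 118 and 10 in CyCoNP PD, with 0 in both LacZ PD libraries. In CPM these are 93.3 and 53.0 in input and 78.0 and 19.4 in CyCoNP PD, which overlap. Set against 3 counts over both LacZ PD libraries, HUWE1 was at least 3.83-fold lower in LacZ PD than in input and at least 3.35-fold lower than in CyCoNP PD. Its adjusted p in LacZ PD against input was 0.496 in edgeR and 0.0371 with the replicate block, and DESeq2 gave it none. BIRC6, an inhibitor of apoptosis with ubiquitin-conjugating activity, was also at 0 in both LacZ PD libraries, at least 2.04-fold lower than in input, where it had 42 and 16 counts. USP34, a deubiquitinase of the Wnt pathway, had the lowest log2 fold change of all members in CyCoNP PD, -1.34 (standard error 0.91), from 51.5 and 10.1 CPM in input and 11.9 and 9.71 CPM in CyCoNP PD, with 1 and 0 counts in LacZ PD. That value rested on input 1, since CyCoNP PD and input 2 were alike. UBR4, HERC1, MYCBP2 and RNF213 had log2 fold changes from -1.30 to 0.77 in CyCoNP PD, none past the test.

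PRKDC, the catalytic subunit of the DNA-dependent protein kinase, and SRRM2 were the only members with more than 5 counts in each LacZ PD library. PRKDC was at 156 and 179 CPM in input, 155 and 115 CPM in CyCoNP PD, and 318 and 164 CPM in LacZ PD, from 6 and 23 counts. The log2 fold changes were -0.25 (standard error 0.59) in CyCoNP PD and -0.12 (standard error 0.64) in LacZ PD against input, both smaller than their errors. The second is below 0 although the mean CPM was higher in LacZ PD, since the TMM factor of LacZ PD 1 was 1.70, and with library sizes alone it was 0.40 (standard error 0.61). Both CyCoNP PD libraries lay below both inputs, although CyCoNP PD 1 and input 1 were almost equal. ATM, the kinase that signals DNA double-strand breaks, was at 26.5 and 39.1 CPM in input, 25.1 and 31.1 CPM in CyCoNP PD, and 53.0 and 35.7 CPM in LacZ PD, and overlapped between CyCoNP PD and input. NF1, the Ras inhibitor lost in neurofibromatosis, had 4 and 1 counts in the inputs, 13 and 2 in CyCoNP PD, with 0 in LacZ PD. This is too few for a comparison, and its log2 fold change of 1.03 in CyCoNP PD had a standard error of 1.28.

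SRRM2, a scaffold of nuclear speckles, had the largest summed counts of the members. It was at 195 and 179 CPM in input, 335 and 117 CPM in CyCoNP PD, and 318 and 121 CPM in LacZ PD. Input lay between the 2 libraries of each pull-down, and the pull-down libraries numbered 1 were alike, as were those numbered 2. The log2 fold change in CyCoNP PD was 0.36 (standard error 0.65), and it ranged from -0.64 to 0.95 when single libraries were left out. A gene on the opposite strand overlaps SRRM2 and holds 3105 counts in all. The use of strand in the counting is not given, so how well reads of the 2 were told apart is not known. PRPF8, the central protein of the U5 snRNP, was at 25.1 and 29.0 CPM in input, 43.0 and 40.8 CPM in CyCoNP PD, and 0 and 28.5 CPM in LacZ PD. Its replicates were close and the CyCoNP PD libraries lay above both inputs, but the log2 fold change of 0.69 (standard error 0.68) had an unadjusted p of 0.33 in edgeR. MDN1, an ATPase of large ribosomal subunit assembly, was at 51.5 and 13.9 CPM in input, 23.1 and 11.7 CPM in CyCoNP PD, and had 0 and 1 counts in LacZ PD.

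Among the lipid transfer and vesicle genes, NBEA, a regulator of neuronal membrane protein traffic, was at 93.3 and 25.3 CPM in input, 21.2 and 31.1 CPM in CyCoNP PD, and 106 and 35.7 CPM in LacZ PD. As for USP34, the high value was input 1, and CyCoNP PD resembled input 2. Pseudogenes of NBEA took 1 to 26 counts per library. VPS13C, which bridges the endoplasmic reticulum to late endosomes, was at 20.9 and 21.5 CPM in input, 15.2 and 17.5 CPM in CyCoNP PD, and 53.0 and 35.7 CPM in LacZ PD, where both libraries lay above the inputs on 1 and 5 counts. VPS13D, needed for mitochondrial shape, was at 4.18 and 11.4 CPM in input and 7.94 and 21.4 CPM in CyCoNP PD, and had 0 and 3 counts in LacZ PD. VPS13B had at most 5 counts in any library, and its region holds overlapping genes with 5193 counts. Of the surface proteins, the endocytic receptor LRP1 had 20 and 4 counts in the inputs, 37 and 1 in CyCoNP PD, with 0 in LacZ PD. The adhesion receptor CELSR2 of planar cell polarity was at 6.96 and 11.4 CPM in input and 5.95 and 5.83 CPM in CyCoNP PD, and had 0 and 1 counts in LacZ PD. Its relative CELSR3 was at 2.79 and 3.79 CPM in input and 2.65 and 0 CPM in CyCoNP PD, and its 0 and 2 counts in LacZ PD gave the highest fitted value of all members there, 1.45 (standard error 1.77). No direction can be read for any of these.

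In LacZ PD against input, 0 members were called with edgeR, where 0% of all genes tested were called, while 7 were lower and 0 higher for an unadjusted p under 0.05, where 6.28% and 0.740% of all genes were. The 7 are HUWE1, BIRC6, BPTF, KMT2C, ZFHX3, DST and SPTBN1. DESeq2 called 1 member, ZFHX3, lower, where it called 0.422% of all genes lower and 0.0478% higher. With the block DESeq2 called the same member, where 0.565% were called lower and 0.0716% higher. With the block in edgeR HUWE1 and ZFHX3 were called, where 0.796% were called lower and 0.127% higher, and without the count filter 0 members were, where 0.130% and 0.0314% were. The fitted log2 fold change was below 0 for 40 of the 47 tested members and above 0 for 7, with a median of -1.41, next to -1.44 for the other genes with a coding sequence of 5000 bases or more and -0.68 for all genes. The last value moved to -0.34 with library sizes alone in place of TMM, and the median of the long mRNAs to -1.10, a shift that both share. Without LacZ PD 2 the median was -4.52 for all genes, -1.79 for the long mRNAs and -5.23 for the other long genes. These values cannot order the lists. LacZ PD 1, with 18870 counts, detected 5065 genes, so most of the 12565 genes tested had no count there, as had most of the other long genes. The fitted values of such genes depend on the prior count of the fit. Of the 48 members, 22 were at 0 in LacZ PD 1 and 12 in LacZ PD 2. With genes at 0 in both placed at the limit of 3 counts, and those whose input is also under that limit left out, the medians were -1.03 for 43 members, -0.87 for the other long genes and -0.21 for all genes. Both LacZ PD libraries lay below both inputs for 17 tested members, where 33.7% of all genes did, and above both for 2 (CHD8 and VPS13C), where 10.6% did.

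Between the pull-downs, 0 members were called with edgeR, where 0% of all genes tested were called, and DESeq2 also called 0 members, where it called 0.287% of all genes higher and 0.0159% lower. The block gave 1 member, CHD7, higher in edgeR, where 0.724% of all genes were called higher and 0.0478% lower, and in DESeq2, where 0.414% and 0.0318% were. Without the count filter 0 members were called, where 0.265% and 0.0135% of all genes were. At an unadjusted p under 0.05, 7 members were higher in CyCoNP PD (HUWE1, BIRC6, CHD7, BPTF, KMT2C, NIPBL and ZFHX3) and 0 lower, where 4.74% and 0.462% of all genes were. The fitted value was above 0 for 38 members and below 0 for 9, with a median of 1.20, next to 1.28 for the other long genes and 0.64 for all genes. For 15 members both CyCoNP PD libraries lay above both LacZ PD libraries, where 29.3% of all genes did. For 7 they lay below (FLNA, KMT2A, CHD8, PRKDC, ATM, VPS13C and NBEA), where 9.57% of all genes did. Apart from PRKDC, each of the 7 had fewer than 10 counts in LacZ PD in all.

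Every nuclear protein-coding gene was classed by its longest annotated coding sequence, which need not be the isoform that was read. Genes with 5000 bases or more took a lower share of the counts in each pull-down library than in the input of the same number. In CyCoNP PD the difference was smaller than that between the inputs, and in the library numbered 2 its direction changed when MAP1B alone was left out. Genes with a coding sequence of 5000 bases or more, 784 in all, took 3.26% and 2.37% of the nuclear coding counts in the inputs, 2.38% and 2.27% in CyCoNP PD, with 2.12% and 1.32% in LacZ PD. Against the input of the same number this was 0.731 and 0.957 times in CyCoNP PD and 0.649 and 0.557 times in LacZ PD, while input 1 was 1.38 times input 2. With genes classed by their median coding sequence instead, 391 had 5000 bases or more. Their share in CyCoNP PD was 0.752 and 1.34 times the input of the same number. Without MAP1B, left out after its counts were seen, the ratios were 0.821 and 1.099 in CyCoNP PD, so the replicates went opposite ways, and 0.736 and 0.645 in LacZ PD. Genes of this class that were higher in CyCoNP PD were kept. CENPF was at 148 CPM in input 2 and 1474 CPM in CyCoNP PD 2, and MKI67 at 30.3 and 689 CPM. Leaving out only a gene that was lower raises the ratio, so the change of direction follows from that choice. At the other end, genes with under 1000 bases took 56.0% and 66.4% in input, 64.4% and 65.8% in CyCoNP PD, with 59.9% and 73.8% in LacZ PD. The median log2 fold change of CyCoNP PD against input was 0.23 for genes under 1000 bases, -0.04 from 1000 to under 2000, -0.29 from 2000 to under 3000, -0.29 from 3000 to under 5000 and -0.26 at 5000 or more. It thus went no lower beyond 2000 bases. In LacZ PD the medians were -0.08, -0.68, -1.07, -1.39 and -1.44, lower in each longer class. They include fitted values of genes at 0 in both LacZ PD libraries, and with those genes placed at the limit of 3 counts the medians were 0.06, -0.25, -0.50, -0.66 and -0.87, in the same order.

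**Figure D4:**
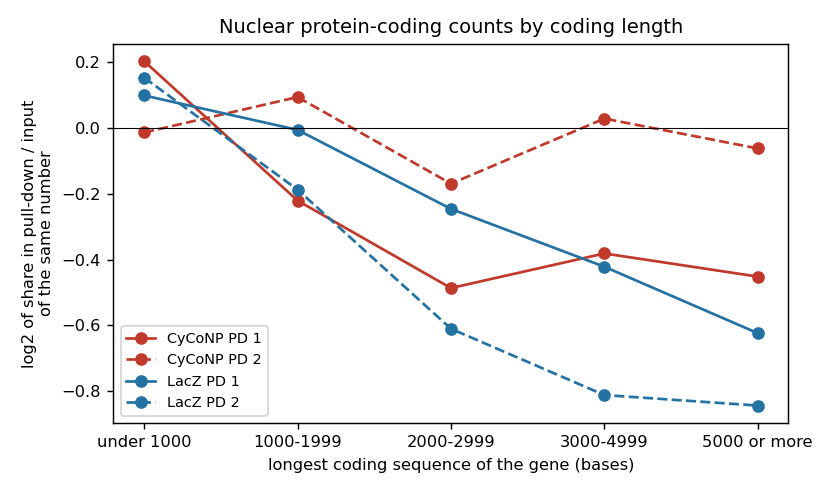
Share of nuclear protein-coding counts in 5 classes of longest coding sequence (x axis, bases), as log2 of the pull-down over the input of the same number (y axis). Red lines are CyCoNP PD and blue lines LacZ PD, solid for number 1 and dashed for number 2; the class of 5000 bases or more, MAP1B included, lies below 0 in all 4 pull-down libraries, and that under 1000 bases above 0 in 3 of them and just below in CyCoNP PD 2.

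Over 10441 nuclear coding genes, Spearman's rho between coding length and the log2 fold change was -0.23 in CyCoNP PD and -0.28 in LacZ PD. Over the 47 tested members, which cover only the long end, it was -0.17 and -0.23. These are correlations across genes of the same libraries, genes are not independent replicates, and the points share depth and normalization. In LacZ PD, the fitted value of a gene with no count there depends on the prior count of the fit.

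**Figure D5:**
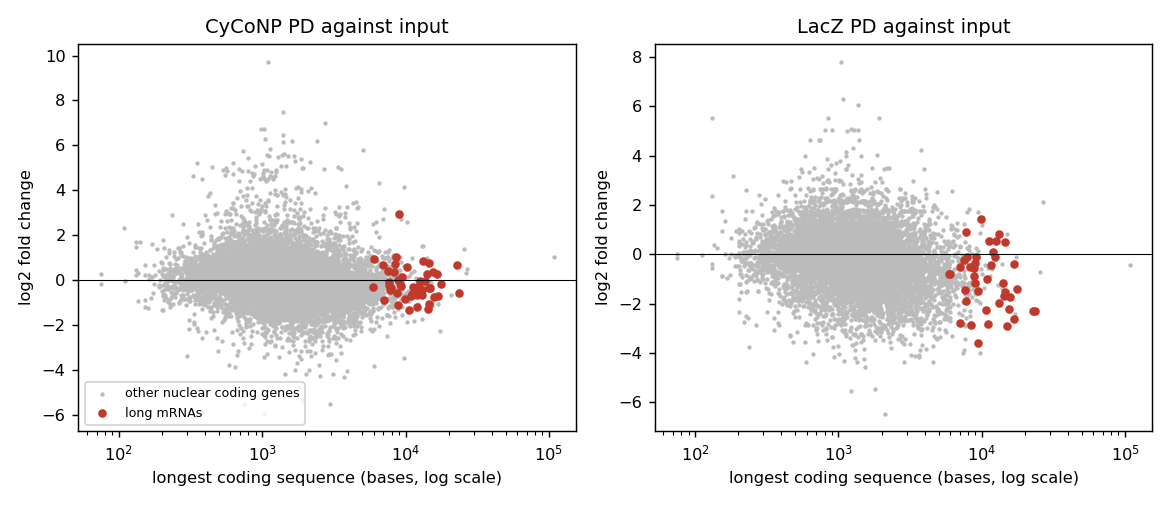
Longest coding sequence (x axis, bases, log scale) against the log2 fold change over input (y axis) for nuclear coding genes (grey) and the long mRNAs (red), in CyCoNP PD (left) and LacZ PD (right, without genes that had 0 counts in both LacZ PD libraries). On the left the long mRNAs other than CHD7 lie from -1.34 to 1.03, and CHD7 at 2.93.

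With a limit of 8000 bases, both CyCoNP PD libraries lay between the inputs, at 0.911 and 1.46 times the input of the same number, so the replicates went opposite ways. Those 224 genes took 0.846% and 0.574% of the nuclear coding counts in the inputs and 0.770% and 0.840% in CyCoNP PD, with 0.650% and 0.324% in LacZ PD. CENPF and MKI67, mitotic proteins that are not among the 48 and were looked at after their values were seen, had more counts in CyCoNP PD than in input. CENPF had 103 and 117 counts in the inputs and 598 and 759 in CyCoNP PD, and MKI67 had 15 and 24 in input and 321 and 355 in CyCoNP PD. Their log2 fold changes were 2.72 and 4.15, with adjusted p of 0.299 and 0.0880 in edgeR, so neither was called by that fit. The study also measured CENPF by RT-qPCR in further pull-downs and reported it as enriched with CyCoNP. Without them and CHD7 the shares were 0.816% and 0.548% in input and 0.662% and 0.507% in CyCoNP PD. Since the genes left out were all higher in CyCoNP PD, their removal had to lower its share, and the order that remains tests nothing.

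Shorter partners of the same complexes give a comparison at like function. The 60 partners of dynein, non-muscle myosin, the TIP60, COMPASS-type and NURF complexes, cohesin, the U5 snRNP and the end-joining machinery took 1.06% and 0.742% of the input libraries, 0.758% and 0.575% of CyCoNP PD, and 0.906% and 0.649% of LacZ PD. Of these, 59 were tested and 0 were called in CyCoNP PD with edgeR, while an unadjusted p under 0.05 held for 1 higher and 1 lower gene. Their median log2 fold change was 0.14 in CyCoNP PD and -0.53 in LacZ PD, next to -0.28 and -1.41 for the long mRNAs. Their summed share was nevertheless lower in both CyCoNP PD libraries, 0.713 and 0.775 times the input of the same number. MYL6 and XRCC5 had the largest counts of the partners. XRCC5, a subunit of the Ku DNA end-binding complex that recruits the kinase encoded by PRKDC, was at 2089 and 1779 CPM in input. In CyCoNP PD it was at 956 and 622 CPM, with a log2 fold change of -1.21 (standard error 0.63). MYL6, a myosin light chain, was at 4371 and 2183 CPM in input and 2173 and 1453 CPM in CyCoNP PD, with a log2 fold change of -0.75 (standard error 0.66). DYNLT1 and DYNLL1, light chains of the motor whose heavy chain is DYNC1H1, had log2 fold changes of 0.36 and -0.11 in CyCoNP PD against 0.30 for DYNC1H1.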

How the data were processed

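RNA of SK-N-BE cells at day 1.5 was measured in 6 libraries, grouped by the labels into input, CyCoNP PD and LacZ PD with 2 libraries apiece. The authors kept Nanopore reads of sufficient quality and length, aligned them to GRCh38 with minimap2 2.24-r1122 and used Bambu to assign them to Ensembl genes, without discovery of new isoforms, and deposited whole-number counts per gene with no normalization. The CPM values that the authors deposited were used only as a check, and differed from the counts scaled to the library totals by at most 5.1e-11. Assignment of reads by Bambu decides how near-identical copies and overlapping genes share counts, and the use of strand is not given in the sources used here. Of 60676 genes, the 12565 with a total of at least 10 counts were fitted with edgeR 4.0.16 (R 4.3.3, TMM, quasi-likelihood F test, all groups in one fit, Benjamini-Hochberg adjustment), and calls needed an adjusted p under 0.05 and an absolute log2 fold change above 1. Standard errors are the absolute log2 fold change over the square root of F. Coding lengths came from GENCODE v44, which held 12528 of the tested genes, and probe sequences from the study's supplement. Levels in CPM are counts over the library total, without the TMM factor.

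Per library, 18870 to 1512148 counts were available. The study describes biological duplicates, while the labels do not say that a shared number marks a shared extract, so p-values measure the spread between these libraries. Replicates of a group differed by more than sampling noise, with a chi-square of 4.11 to 18.4 per degree of freedom. Deviations from the group means of same-numbered libraries correlated at 0.449, 0.268 and 0.257 between the 3 groups, so the number was also used as a block, and blocked values stand beside the results whose call they change. The 48 genes, the lists of partners and markers, and the rule for named members were chosen with earlier results of these data known. Values in every library are given for the 3 members with the most counts in each role, for members called by any of edgeR, DESeq2 or the block, and for the highest and lowest fold change in each comparison, and further members were named after their values were seen. Alternatives were size factors after DESeq2, DESeq2 1.42.0, library size alone, filterByExpr, no count filter, only the 2 groups compared, the block, other totals and length limits, and leaving out each library.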

Additional observations from a re-analysis of the deposited data

How the results depend on the processing

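With DESeq2 1 member was called in CyCoNP PD against input (CHD7) and 1 in LacZ PD against input (ZFHX3), and without the count filter 1 in CyCoNP PD (CHD7). With the replicate block in edgeR 1 was called in CyCoNP PD (CHD7), 2 in LacZ PD (HUWE1 and ZFHX3) and 1 between the pull-downs (CHD7), and with the block in DESeq2 1 each (CHD7, ZFHX3 and CHD7). The block changed no other call of a member. The other fits and the omission of each library called 0 members in every comparison, where edgeR gave 1 to 7 members at an unadjusted p under 0.05 with all libraries. Leaving out each library moved the median log2 fold change of the long mRNAs between -0.55 and 0.17 in CyCoNP PD against input, between -1.79 and -0.77 in LacZ PD against input, the last without input 1, and between 0.77 and 1.63 between the pull-downs. The pooled share then ran from 0.173% to 0.295% in input, 0.204% to 0.238% in CyCoNP PD and 0.109% to 0.238% in LacZ PD, and the share of genes with a coding sequence of 5000 bases or more from 2.37% to 3.26%, 2.27% to 2.38% and 1.32% to 2.12%. The mean pooled share in CyCoNP PD was 0.288% of nuclear coding counts, 0.246% without mitochondrially encoded genes and 0.189% without CHD7, an alternative added after its values were seen. The share of long genes was 1.94% in input and 1.67% in CyCoNP PD with a limit of 6000 bases. With 8000 bases it was 0.710%, 0.805% and 0.487% (input, CyCoNP PD, LacZ PD). By a longest transcript of 8000 bases or more it was 6.83%, 5.56% and 4.57%. By the median coding sequence of a gene it was 0.890%, 0.872% and 0.541%. In this last class CyCoNP PD was 0.752 and 1.34 times the input of the same number, so the replicates went opposite ways. Of 915 values of named members under these fits, 10 newly passed the threshold, and since edgeR had called 0 members no call could be lost. The sign differed in 41 of them, 29 without a library and 12 in other fits. Of the counts of calls, medians and shares, 24 moved beyond the spread or by over 1.5 times, and the values that did are those given above. The causes were not tested. The depth of LacZ PD 1, where 3 counts are 159 CPM, limits every comparison with the control.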

Other observations

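Among genes outside the 48, those with a coding sequence of 5000 bases or more and the highest mean level were MAP1B, NACA, NBEAL1, KIF21A and SON, listed after their values were seen. MAP1B, a microtubule-associated protein of growing axons, had 2486 and 2314 counts in the inputs against 918 and 236 in CyCoNP PD (log2 fold change -2.51, standard error 0.65, adjusted p = 0.248 from edgeR). In LacZ PD, with 8 and 29 counts, its log2 fold change against input was -3.98 (standard error 0.73, adjusted p = 0.313 from edgeR). NACA, of which the short isoform encodes a subunit of the nascent polypeptide-associated complex, had 395 and 971 counts in the inputs against 1694 and 656 in CyCoNP PD (log2 fold change 0.46, standard error 0.74). The annotation gives NACA a coding sequence of 6234 bases through a rarer long isoform, so its reads need not be long. SON, a speckle protein like SRRM2, was at 659 and 691 CPM in input against 873 and 293 CPM in CyCoNP PD, with the same contrast between the CyCoNP PD replicates.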
